A study of Rattus norvegicus with 8 samples.

Results

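The comparison set whole brains of rats after 2 hr of isoflurane against whole brains after 1 hr, on the 5 arrays of exposed animals out of 8 arrays in all. Both groups breathed 2% isoflurane, a volatile general anaesthetic, through a tube in the windpipe. The 2 hr group held 3 samples and the 1 hr group 2, told apart by their titles, with 1 short-oligonucleotide rat array per sample. Control samples, whose rats breathed the gas for 3 min, were not used in the comparison. Neither exposed group is an untreated one, so a difference here is between a longer and a shorter anaesthesia and not between anaesthesia and none. The sources used here do not give strain, sex or age, nor how the exposed brains were collected. A rat is mentioned for each sample without an animal number, so the spread between samples of a group, and the p-values that rest on it, may be partly technical.

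Isoflurane strengthens inhibition at GABA-A and glycine receptors, opens two-pore-domain potassium channels and dampens excitatory transmission, and it produces immobility and loss of consciousness within minutes. The brain during long anaesthesia also receives hormones from the rest of the body. Among them are the glucocorticoids, which cross into the brain, bind a nuclear receptor and switch on a set of target genes in glia, vessels and neurons. Genes of these pathways, and markers of the cell types of brain and of the tissues around it, were gathered into 33 lists.

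No single gene passed the test between 2 hr and 1 hr. Of 7485 probe sets, the oligonucleotide groups that each give 1 intensity per array, limma gave 0 (0%) an adjusted p under 0.05, the smallest value being 1.00. The genes furthest apart without overlap between the groups included the glutamate receptor gene Grid1, the lipoxygenase gene Alox15, the lysosomal activator gene Gm2a and the glycerol phosphate dehydrogenase gene Gpd1, which read 3.52 to 5.14 times higher after 2 hr. The stress kinase gene Mapk8, the bile salt transporter gene Abcb11 and the prolactin gene Prl read lower, near or at the floor of measurement after 2 hr. Glucocorticoid-responsive genes were the list with the highest median log2 difference, 0.28 over 18 genes, against -0.02 over all 4244 genes tested. That list was put together with earlier results of these data in view, so its rank is a description only. Levels throughout are log2 of the deposited intensity, and differences are 2 hr minus 1 hr on that scale, so that 1 means 2-fold.

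At an unadjusted p under 0.05, limma called 209 probe sets (2.79%), 90 higher and 119 lower after 2 hr, where 374.25 would be called if every p were uniform. The 3 arrays of 2 hr lay wholly above or wholly below the 2 arrays of 1 hr for 1064 probe sets (14.2%), 460 above and 604 below. Without 1 hr replicate 2 the count at an unadjusted p under 0.05 was 627, and without the other arrays in turn it lay between 142 and 223. These counts are the background for every count given for a list of genes. The median standard error of a difference was 0.46. An exact permutation test of a single value over 3 against 2 arrays has 10 arrangements and cannot give a p under 0.1. A probe set that misses the threshold is therefore not shown to be alike at both times. Nor is a probe set without overlap shown to differ. With interchangeable arrays, 1 arrangement in 10 puts 2 hr wholly above 1 hr and 1 in 10 wholly below. Over all genes the shares were lower than that, 6.57% above and 7.82% below.

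**Figure D1:**
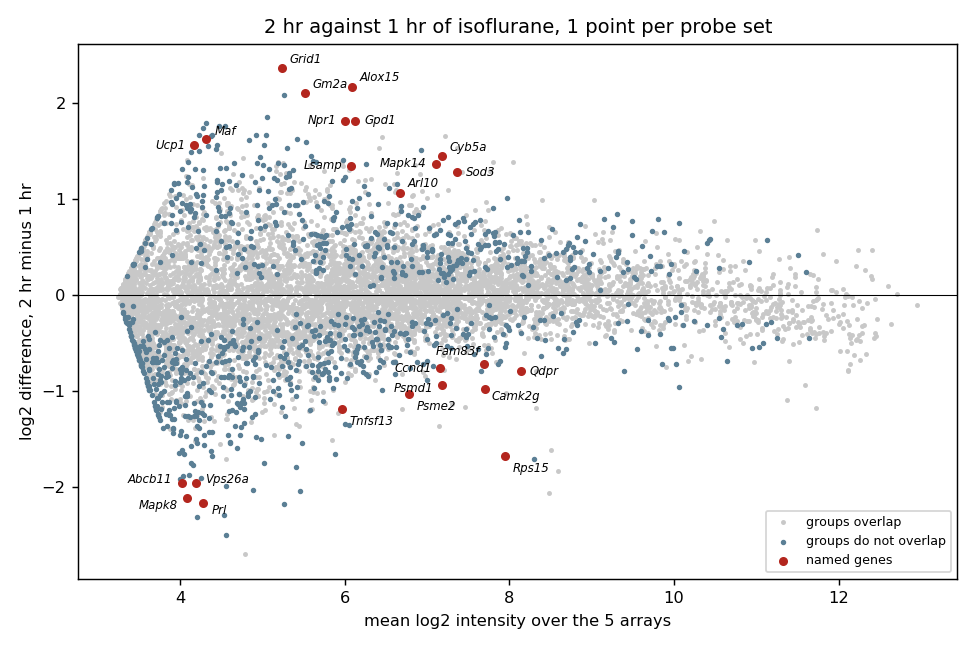
Log2 difference, 2 hr minus 1 hr, against the mean log2 intensity over the 5 arrays, 1 point for each of 7485 probe sets. Blue points are the 1064 whose groups do not overlap, red points the 24 genes named by rule, and the slanted left edge is the floor at a log2 intensity of 3.23.

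The 5 arrays differed in ways that touch these counts. On 1 hr replicate 1, 15.5% of probe sets lay at or under the floor, against 20.6% to 21.7% on the other 4, so dim genes read higher on that array. The brightest probe set reached 3504 to 9846 on 3 arrays, 23009 on 1 hr replicate 1 and 37712 on 2 hr replicate 3. The 5S ribosomal RNA control read 13.1 on 2 hr replicate 1 and 70.4 to 141.7 elsewhere. The 3′ to 5′ ratio of the beta-actin controls was 1.46 on 1 hr replicate 1 and 1.57 on 2 hr replicate 3. It was 1.20 to 1.26 on the other arrays. For GAPDH the same 2 arrays were highest, at 1.39 and 1.17 against 0.88 to 1.09. For hexokinase they were not, at 2.22 and 2.06 against 2.01 to 2.58. The CreX-3 control ran from 2197 to 13935, highest on 2 hr replicate 3. Correlations between arrays ran from 0.912 to 0.958, and no pair held more than 60 identical values. The arrays did not group by exposure on this measure. Both 1 hr arrays correlated at 0.921 with each other, while 1 hr replicate 2 reached 0.947 to 0.958 with the 2 hr arrays. All 20 neuron, 11 oligodendrocyte and 16 microglia marker genes on the array lay above the floor on all 5 arrays. So did 14 of 15 astrocyte markers. Of the markers of skeletal muscle, heart and fat 13 of 23 did. Of all probe sets other than controls, a count by probe set and not by gene, 5856 of 8740 did. All 37 ribosomal protein genes and all 24 heat shock and chaperone genes did as well, so these counts do not identify the tissue. The count for muscle, heart and fat therefore does not show that such tissue was absent.

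Of the genes that read higher after 2 hr, the first 12 by rule comprised 8 from the brighter part of the array and 4 from the dimmer part. Alox15 (S69383_at), which encodes a lipoxygenase that oxygenates arachidonic acid, read 4.94 and 4.64 at 1 hr and 6.85, 7.47 and 6.56 at 2 hr. Its difference was 2.17 (SE 0.45), 4.49-fold, with an unadjusted limma p of 0.000827. Gpd1 (AB002558_at) encodes cytosolic glycerol-3-phosphate dehydrogenase, which links glycolysis to lipid synthesis and to the glycerol phosphate shuttle, and read 5.11 and 4.97 at 1 hr and 7.16, 6.75 and 6.65 at 2 hr. For both genes the groups stood far apart, with a gap of 1.62 for Alox15 and 1.54 for Gpd1, with little spread at 1 hr. The difference for Gpd1 was 1.82 (SE 0.41), 3.52-fold. Npr1 (S82229_s_at), the guanylyl cyclase receptor for atrial natriuretic peptide, read 4.87 and 4.96 at 1 hr and 5.99, 6.72 and 7.48 at 2 hr, a difference of 1.81 (SE 0.52). The 2 hr arrays spread widely for Npr1, with replicate 3 highest and replicate 1 lowest, and its brighter probe sets, J05677mRNA_s_at and S80456_s_at, read differences of -0.19 and -0.14.

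Mapk14 (rc_AI171630_s_at), the p38-alpha stress kinase, read 6.15 and 6.42 at 1 hr and 7.77, 8.11 and 7.07 at 2 hr, a difference of 1.37 (SE 0.37). Sod3 (Z24721_at), the extracellular superoxide dismutase, read 6.23 and 6.97 at 1 hr and 7.67, 8.34 and 7.61 at 2 hr, a difference of 1.28 (SE 0.36). On both genes 2 hr replicate 2 was the highest array. The other probe sets did not bear the separation: 5 further ones of Mapk14 overlapped between the groups, at differences of -0.53 (U91847_s_at), -0.22 (rc_AA924542_s_at), 0.37 (U73142_g_at), 0.44 (rc_AI137862_s_at) and 0.81 (U73142_at), and X68041cds_s_at of Sod3, close to the floor, read -0.02. Cyb5a (rc_AA945054_s_at), cytochrome b5, an electron carrier for lipid desaturation, read 6.72 and 5.91 at 1 hr and 8.40, 7.75 and 7.14 at 2 hr, a difference of 1.44 (SE 0.43). For Cyb5a 2 hr replicate 1 was highest, and AF007107_s_at and rc_AA817685_at read -0.29 and 0.22.

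Lsamp (U31554_at), a neuronal surface adhesion molecule of the limbic system, read 5.12 and 5.42 at 1 hr and 6.75, 6.34 and 6.75 at 2 hr, a difference of 1.35 (SE 0.42). Arl10 (rc_H33467_at), a small GTPase of the ADP-ribosylation factor family, read 6.22 and 5.85 at 1 hr and 7.17, 7.30 and 6.82 at 2 hr, a difference of 1.07 (SE 0.35). Both had 3 even arrays at 2 hr. A dim probe set of Arl10, rc_AA891166_at, overlapped between the groups at 0.41.

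Among the dimmer probe sets, Grid1 (U08255_at), the delta-1 member of the glutamate receptor family that organises synapses, read 4.06 and 3.57 at 1 hr and 5.99, 6.51 and 6.04 at 2 hr. Its difference of 2.36 (SE 0.52), 5.14-fold, was the highest of all probe sets of 1 gene tested. Gm2a (E12286cds_at), which presents ganglioside GM2 for breakdown in the lysosome, read 4.36 and 4.15 at 1 hr and 6.61, 5.92 and 6.54 at 2 hr, a difference of 2.10 (SE 0.50). Neither gene had another probe set among those tested, and the gap between the groups was 1.93 for Grid1 and 1.56 for Gm2a. Maf (U56242_at), a basic leucine zipper transcription factor, read 3.23 and 3.43 at 1 hr and 4.85, 5.16 and 4.87 at 2 hr, a difference of 1.63 (SE 0.47). Its 3 probe sets went different ways: rc_AA893082_at read 0.52 without overlap, and rc_AI070994_s_at read -1.11, also without overlap.

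Ucp1 (X03894_at), the uncoupling protein of brown fat, was at the floor on both 1 hr arrays and read 4.67, 4.94 and 4.78 at 2 hr, at least 2.95-fold higher. A second probe set of Ucp1, A04674cds_s_at, read 3.29 and 3.23 at 1 hr and 4.60, 4.64 and 4.71 at 2 hr, a difference of 1.39 (SE 0.43), so both sets of the gene stood apart in the same direction. Of the 18 measured markers of muscle, heart and fat, Ucp1 included, 10 read higher and 8 lower, with a median of 0.03. Leptin (Lep), a hormone of white fat, read lower without overlap on D49653_s_at. Its values there were 10.003 and 10.15 at 1 hr and 9.62, 9.50 and 9.88 at 2 hr. The much dimmer sets D45862_at and D45862_g_at overlapped, at -0.29 and -0.22. Their mean levels were 4.16 and 3.68, against 9.83 on the bright set. Whether the bright set reads leptin RNA was not tested.

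**Figure D2:**
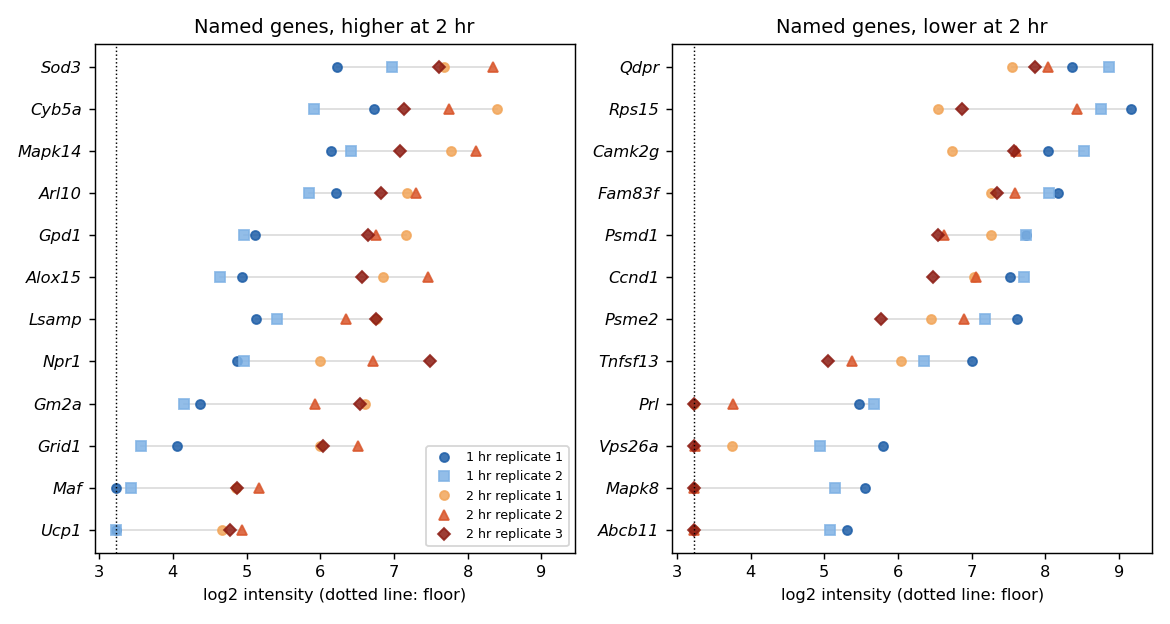
Log2 intensity on each array for the 12 genes named as higher (left) and the 12 named as lower (right) after 2 hr, ordered by mean level, with 1 hr arrays in blue and 2 hr arrays in orange to dark red. The dotted line is the floor, where the 1 hr arrays of Ucp1 and the 2 hr arrays of Mapk8 and Abcb11 lie.

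Of the genes that read lower after 2 hr, the first 12 by rule also comprised 8 from the brighter part of the array and 4 from the dimmer part. Rps15 (rc_AA892895_i_at), a protein of the small ribosomal subunit, read 9.16 and 8.75 at 1 hr and 6.54, 8.43 and 6.87 at 2 hr, a difference of -1.67 (SE 0.50). Here 2 hr replicate 2 lay close to the 1 hr arrays, and the 2 brighter probe sets of the gene, rc_AA892895_r_at and E01534cds_s_at, read -0.06 and 0.05. Ribosomal protein genes have many near-identical copies in the genome, so the assignment of such probe sets is uncertain. Psmd1 (AJ006340_s_at), a subunit of the regulatory particle of the proteasome, read 7.74 and 7.74 at 1 hr and 7.26, 6.62 and 6.54 at 2 hr, a difference of -0.93 (SE 0.33). A brighter probe set of Psmd1, rc_AA859869_s_at, separated the groups in the same direction at -0.60 (SE 0.27), and U57050_g_at overlapped at -0.19. Psme2 (D45250_s_at), a subunit of the activator that caps the proteasome in antigen processing, read 7.61 and 7.18 at 1 hr and 6.45, 6.89 and 5.77 at 2 hr, a difference of -1.03 (SE 0.41), with 2 hr replicate 3 lowest.

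Camk2g (S71570_s_at), the gamma subunit of calcium/calmodulin-dependent kinase II, read 8.04 and 8.53 at 1 hr and 6.73, 7.61 and 7.58 at 2 hr, a difference of -0.98 (SE 0.35). J04063_at of Camk2g separated the groups too, at -0.72 (SE 0.33), while U73503_at, near the floor, overlapped at -0.84. Qdpr (J03481mRNA_at), the reductase that regenerates tetrahydrobiopterin for monoamine synthesis, read 8.36 and 8.86 at 1 hr and 7.55, 8.04 and 7.86 at 2 hr, a difference of -0.79 (SE 0.29). For Camk2g and Qdpr, 1 hr replicate 2 was the highest array and 2 hr replicate 1 the lowest. The brighter probe set of Qdpr, J03481mRNA_g_at, separated at -0.56 (SE 0.32).

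Ccnd1 (rc_AA957218_at), cyclin D1, read 7.52 and 7.71 at 1 hr and 7.03, 7.06 and 6.48 at 2 hr, a difference of -0.76 (SE 0.32), and its 4 other probe sets overlapped, at -0.37 (D14014_g_at), 0.09 (D14014_at), 0.39 (rc_AI231257_at) and 0.85 (X75207_s_at). Tnfsf13 (rc_AA891690_at), a cytokine of the tumour necrosis factor family that acts on B cells, read 7.01 and 6.35 at 1 hr and 6.04, 5.38 and 5.06 at 2 hr, a difference of -1.19 (SE 0.49). Its brighter probe sets rc_AA891690_g_at and rc_AA800814_at read 0.04 and -0.03, so the separation was on the dimmest of the 3. Fam83f (rc_AI639533_at) read 8.17 and 8.05 at 1 hr and 7.27, 7.58 and 7.34 at 2 hr, a difference of -0.72 (SE 0.27), and rc_AI639533_g_at, near the floor, read -0.19.

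The 4 named genes from the dimmer part of the array were at or near the floor after 2 hr. Mapk8 (L27129_at), the c-Jun N-terminal kinase JNK1, read 5.55 and 5.15 at 1 hr and the floor on all 3 arrays of 2 hr, at least 4.33-fold lower. Abcb11 (AF010597_s_at), a transporter that exports bile salts from liver cells, read 5.31 and 5.07 at 1 hr and the floor on all 3 arrays of 2 hr, at least 3.89-fold lower. In both genes every 2 hr array lay at or under the floor and both 1 hr arrays well above it. Vps26a (rc_AA894037_at), a subunit of the retromer that returns cargo from endosomes, read 5.80 and 4.94 at 1 hr and 3.75, 3.25 and 3.23 at 2 hr, a difference of -1.96 (SE 0.49). Prl (E03166cds_s_at), the pituitary hormone prolactin, read 5.48 and 5.67 at 1 hr and 3.23, 3.77 and 3.23 at 2 hr, a difference of -2.16 (SE 0.47), with 2 of 3 arrays at the floor after 2 hr.

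All 24 named genes kept their direction in every alternative that gave them a value, and 0 of 24 passed the test in the fit reported here. Leaving out an array or changing the floor or filter could not turn them, because the rule took only groups without overlap. Of the 24, 14 had 28 further probe sets above the floor. Of these 28, 16 had the direction of the named probe set, 5 of them without overlap, and 1 separated in the opposite direction.

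Glucocorticoid-responsive genes were the list with the highest share of genes whose groups did not overlap. The list was put together with earlier results of these data in view, so its direction is a description and not independent evidence. Of 18 measured genes 13 read higher and 5 lower after 2 hr; 6 separated upward and 2 downward, which is 44.4% against 14.4% of all 4244 genes (279 or 6.57% upward, 332 or 7.82% downward). At an unadjusted p under 0.05 in limma, 3 of 18 were higher and 0 lower, against 115 of 4244 (2.71%) in either direction. Here and in the other lists the brightest probe set stands for a gene. Over all lists 95 genes separated on it, and 43 of them had 67 other sets, of which 7 separated in the same direction, 3 in the opposite one and 57 overlapped. The median of the glucocorticoid list was 0.28 and that of all genes in the brighter part of the array 0.02.

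The 3 genes were Gpd1, given above, Errfi1 and Sgk1. Sgk1 (L01624_at), a kinase induced by serum and glucocorticoids that controls ion channels and transporters, read 7.999 and 7.66 at 1 hr and 8.61, 8.496 and 8.33 at 2 hr, a difference of 0.65 (SE 0.27), 1.57-fold. Errfi1 (rc_AI169756_s_at), a feedback inhibitor of the epidermal growth factor receptor, read 6.12 and 6.67 at 1 hr and 7.05, 7.17 and 7.46 at 2 hr, a difference of 0.83 (SE 0.34), 1.78-fold. For each gene all 3 arrays of 2 hr lay above both arrays of 1 hr. The separation of Errfi1 was also read by X07266cds_s_at, at 4.75 and 4.31 at 1 hr and 4.90, 4.91 and 6.51 at 2 hr, where 2 hr replicate 3 was far above the others, but not by M23572_at, which overlapped at 0.30 (SE 0.57).

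The promoters of Sgk1 and Errfi1 are shown because these list members separated together and both hold the letters TATAAA of a TATA box close to the start of transcription. Each is the 250 bases before the start in RefSeq's table of assembly GRCr8, 5′ to 3′ on the gene's strand, with TATAAA in capitals. For Sgk1 the window is chr1:24804832-24805081, minus strand, the lowest by coordinate of 3 starts in the table. For Errfi1 it is chr5:166606591-166606840, plus strand.
Sgk1: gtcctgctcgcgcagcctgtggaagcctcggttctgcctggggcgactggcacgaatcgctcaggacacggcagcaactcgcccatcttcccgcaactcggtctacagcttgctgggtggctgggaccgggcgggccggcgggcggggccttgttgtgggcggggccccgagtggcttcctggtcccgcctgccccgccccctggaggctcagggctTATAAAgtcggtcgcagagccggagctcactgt
Errfi1: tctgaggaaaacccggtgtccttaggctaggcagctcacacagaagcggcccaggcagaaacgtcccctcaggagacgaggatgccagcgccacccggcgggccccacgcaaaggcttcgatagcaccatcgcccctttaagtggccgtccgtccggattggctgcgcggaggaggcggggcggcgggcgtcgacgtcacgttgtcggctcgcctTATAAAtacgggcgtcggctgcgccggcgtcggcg
The first base of TATAAA lies 33 bases before the start in Sgk1 and 35 in Errfi1. Of the 18 measured genes, 13 matched the table by symbol. These 13 genes have 19 promoters in the table. TATAAA on the gene's strand was in 4 of the 19, of the 3 genes Cebpb, Errfi1 and Sgk1, against 8.06% of all 33469 promoters. The glucocorticoid receptor half-site TGTTCT, searched on both strands, was in 1 of the 19, of Sult1a1, against 17.5% of all promoters. The full palindrome, the half-site preceded by its reverse complement with NNN between them, was in 0 of the 19 and in 4 of all promoters, or 0.0120%. A motif match describes letters in this window only.

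A further 3 members separated upward. Slc2a1 (S68135_s_at), which carries glucose across the blood-brain barrier, read 9.32 and 9.66 at 1 hr and 10.08, 9.96 and 10.39 at 2 hr, a difference of 0.65 (SE 0.32). Klf9 (D12769_g_at), a Krüppel-like transcription factor, read 9.23 and 9.38 at 1 hr and 10.19, 9.72 and 9.53 at 2 hr, a difference of 0.51 (SE 0.32). Cebpb (X60769mRNA_at), a CCAAT/enhancer binding protein, read 4.88 and 5.30 at 1 hr and 5.77, 5.80 and 5.85 at 2 hr, a difference of 0.72 (SE 0.48). Klf9 was highest on 2 hr replicate 1, Slc2a1 on replicate 3, and Cebpb was even across the 3 arrays. The dimmer sets M13979_at of Slc2a1 and D12769_at of Klf9 overlapped, at 0.47 and -0.02.

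Other classic targets overlapped or went the other way. Dusp1 (U02553cds_s_at), a phosphatase of mitogen-activated kinases, read 5.95 and 8.04 at 1 hr and 6.90, 7.16 and 8.48 at 2 hr, so 1 hr replicate 2 lay among the 2 hr arrays. Sult1a1 (L19998_g_at), a sulfotransferase, read high on 2 of 3 arrays of 2 hr, at 7.32 and 7.39 at 1 hr and 8.48, 8.25 and 7.15 at 2 hr. Glul, glutamine synthetase, read a difference of 0.08, Bcl2l1 0.34, Pnmt 0.21, Cdkn1a 0.01 and Cdkn1c 0.01, all with overlap. Both members that separated downward regulate inflammatory transcription. Cebpd (rc_AA946292_at) read 7.26 and 7.87 at 1 hr and 6.67, 7.23 and 7.19 at 2 hr, a difference of -0.54 (SE 0.34). Nfkbia (X63594cds_at), a cytoplasmic brake on NF-kappaB, read 8.15 and 8.15 at 1 hr and 7.64, 7.74 and 8.13 at 2 hr, a difference of -0.32 (SE 0.28), where 2 hr replicate 3 all but met the 1 hr arrays. Their dimmer probe sets overlapped, at 0.43 and -0.05 for Cebpd and 0.03 (X63594cds_g_at) for Nfkbia. Cdo1, Lcn2 and Tat read -0.44, -0.25 and -0.22 with overlap. A dimmer set separated in 3 genes that overlapped on the brightest one, at 0.58 for Glul (M91652complete_seq_at), 0.78 for Sult1a1 (L19998_at) and -0.76 for Cdo1 (E03229cds_s_at). Of the 8 members that separated, 5 had 7 other probe sets above the floor, of which 1 separated in the same direction and 6 overlapped.

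The list's median was 0.25 for 2 hr replicate 3 against 1 hr replicate 1, the arrays of highest top intensity, and 0.40 for 2 hr replicates 1 and 2 against 1 hr replicate 2. Its mean level was 6.91 and 6.93 on the 1 hr arrays and 7.18, 7.20 and 7.25 on the 2 hr arrays, with no overlap. The meningeal list too had no overlap, at 6.90 and 6.76 at 1 hr and 7.08, 7.15 and 6.95 at 2 hr. Over the alternatives the median of the glucocorticoid list ran from 0.21 to 0.43, the highest under the 40th percentile floor. The other lists whose median kept its sign in every alternative were the monoamine and acetylcholine receptors, cholesterol synthesis, oligodendrocyte and meningeal lists, so 5 of 33 did. The medians of the other lists took the opposite sign in at least 1 alternative.

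**Figure D3:**
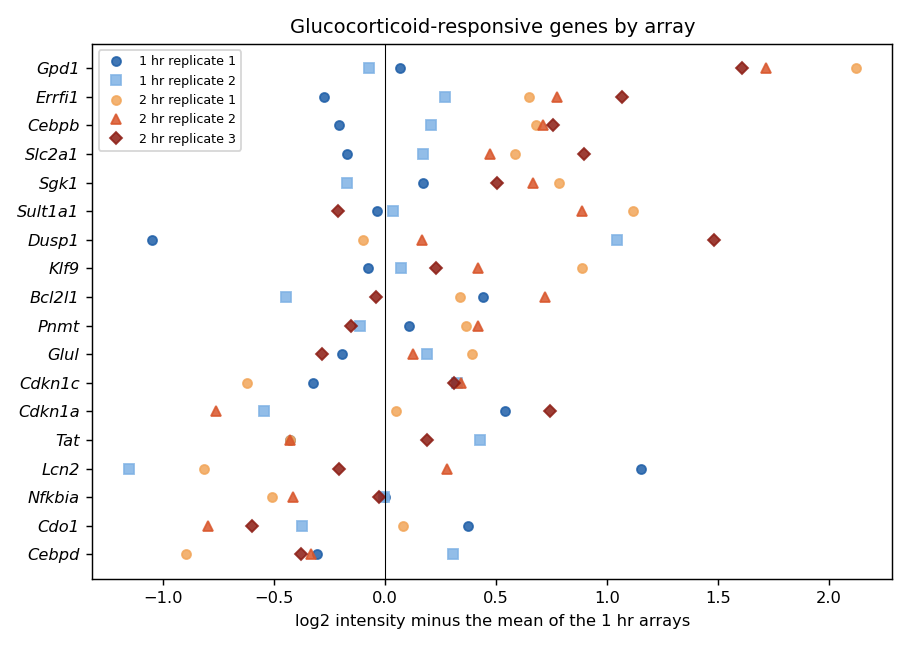
The 18 measured glucocorticoid-responsive genes, with the log2 intensity of each array minus the gene's mean over the 1 hr arrays on the horizontal axis. In the 6 genes Gpd1, Errfi1, Cebpb, Slc2a1, Sgk1 and Klf9 the 3 arrays of 2 hr lie to the right of both 1 hr arrays, and in Nfkbia and Cebpd to the left.

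Genes read by several probe sets give a further view, since each set reads other bases of the same RNA or, for sets of related names, partly the same ones. Of 1321 such genes, 374 had at least 1 probe set without overlap, 35 had at least 2 in the same direction (18 higher, 17 lower) and 13 had sets separated in both directions. The genes named from these 35 were chosen after their values were seen. Gpd2, the mitochondrial partner of Gpd1 in the glycerol phosphate shuttle, separated on 2 of 3 probe sets, with X78593_g_at at 5.11 and 5.45 at 1 hr and 5.83, 5.56 and 6.34 at 2 hr and X78593_at at 3.23 and 3.32 at 1 hr and 4.53, 4.16 and 4.64 at 2 hr. Nrg1, the growth factor neuregulin 1, separated on 2 of 4, with M92430_at at 4.92 and 4.802 at 1 hr and 5.60, 6.38 and 5.42 at 2 hr and U02315_at at the floor on both 1 hr arrays and 4.24 to 4.47 at 2 hr. That no 2 hr array lay as low as any 1 hr array on these 4 probe sets follows from how the 35 were picked. The other sets of both genes overlapped.

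Nos3, the endothelial nitric oxide synthase, separated on 2 of 5 sets, at differences of 0.80 (SE 0.47) and 0.30 (SE 0.32). Vps33b, a protein of vesicle sorting to lysosomes, separated on 3 of 4, at 1.23, 0.52 and 0.60. Psmb2, a subunit of the proteasome core, separated on both of its sets at 0.74 and 0.27, upward, whereas Psmd1 of the regulatory particle separated downward. Ptpn1, a tyrosine phosphatase of insulin signalling, separated on 2 of 5 at 0.54 and 0.27.

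Downward, Bdnf, the brain-derived neurotrophic factor, separated on 2 of 6 sets. S71196mRNA_s_at of Bdnf read 5.25 and 4.86 at 1 hr and 3.23, 3.31 and 4.47 at 2 hr, and D10938exon_s_at 4.85 and 4.97 at 1 hr and 4.78, 4.84 and 4.36 at 2 hr. The brightest set of Bdnf overlapped, at 6.88 and 6.35 at 1 hr and 4.79, 6.49 and 7.54 at 2 hr. Egr4, an activity-regulated zinc finger factor, separated on both sets, at -0.40 (SE 0.26) and -0.81 (SE 0.52). Bdkrb1, the bradykinin B1 receptor, separated on both sets, at -0.83 (SE 0.41) and -1.50 (SE 0.65). Gata6, a zinc finger transcription factor, separated on all 3, at -1.15, -0.64 and -0.61. Slc1a1, a neuronal glutamate transporter, separated downward on 2 dimmer sets, at -0.70 and -0.42, while its brightest set read 0.53 with overlap.

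For the receptors and channels on which isoflurane acts, the measured genes gave no common direction. In the list of GABA and glycine receptors, synthesis and uptake, 15 of 29 measured genes read higher at 2 hr and 14 lower, with a median log2 difference of 0.01 that lay just below 0 under quantile normalization. Gabrp, a GABA-A receptor subunit, read 4.20 and 4.10 at 1 hr and 3.23, 3.897 and 3.23 at 2 hr, and Slc6a13, a GABA transporter found in the meninges, read 3.62 and 5.45 at 1 hr and 5.36, 6.86 and 4.85 at 2 hr. Gabra3, the alpha-3 subunit, read 5.998 and 5.98 at 1 hr and 5.73, 5.56 and 3.80 at 2 hr without overlap, mostly through 2 hr replicate 3, and its dimmer set X51991_at overlapped at -0.78. Gad1, the main enzyme of GABA synthesis, read 8.82 and 8.53 at 1 hr and 9.22, 8.23 and 8.84 at 2 hr. Among potassium channels 16 of 36 measured genes read higher at 2 hr and 20 lower, with a median log2 difference of -0.02 (0.02 after median centring), with Kcna4 at -0.99 and Kcnh7 at -1.08.

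In the list of glutamate receptors, transporters and scaffolds, 22 of 36 measured genes read higher at 2 hr and 14 lower, with a median log2 difference of 0.08 (-0.03 without 1 hr replicate 1), and next to Grid1 the obligatory NMDA receptor subunit Grin1 read 7.31 and 6.82 at 1 hr and 6.61, 7.25 and 6.87 at 2 hr, with overlap. Sodium, calcium and HCN channel genes had 15 of 29 higher and a median of 0.02. In that list Scn11a, a sodium channel of sensory neurons, read 5.02 and 4.29 at 1 hr and 3.23, 3.41 and 3.23 at 2 hr and Itpr2, a calcium release channel, read 4.88 and 4.28 at 1 hr and 3.43, 3.29 and 3.28 at 2 hr, both dim and lower without overlap. Among monoamine and acetylcholine receptors 16 of 46 measured genes read higher at 2 hr and 30 lower, with a median log2 difference of -0.13. In this list 8.70% separated, against 14.4% of all genes. The median was -0.02 without 1 hr replicate 1, the array on which dim genes read higher, and -0.30 without 1 hr replicate 2. Htr1a, the serotonin 1A receptor, read 3.95 and 4.94 at 1 hr and 3.34, 3.26 and 3.39 at 2 hr, and Adra1a, an alpha-1 adrenergic receptor, read 3.85 and 3.91 at 1 hr and 5.61, 4.32 and 5.27 at 2 hr, without overlap in opposite directions.

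Among G protein and second messenger genes 28 of 45 measured genes read higher at 2 hr and 17 lower, with a median log2 difference of 0.16, a median at 0 without 2 hr replicate 2. Rgs14, a regulator of G protein signalling rich in hippocampal area CA2, read 7.45 and 7.41 at 1 hr and 8.06, 8.16 and 8.02 at 2 hr, a difference of 0.65 (SE 0.26). Adcy8, a calcium-stimulated adenylyl cyclase, read 5.62 and 5.54 at 1 hr and 4.19, 3.89 and 4.65 at 2 hr, a difference of -1.34 (SE 0.53). Both separated, Rgs14 with even arrays in each group. Synaptic vesicle and release genes had 17 of 44 higher and a median of -0.03 (0.01 after median centring), with Syt7 at -1.15 and Bsn at -0.70. Neuropeptide precursors had 14 higher and 14 lower, with a median of 0.00.

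Activity-regulated immediate early genes, which follow neuronal firing, were split evenly: 16 of 32 measured genes read higher at 2 hr and 16 lower, with a median log2 difference of -0.01 (0.04 under quantile normalization and 0.03 after median centring). Fos read 7.79 and 8.08 at 1 hr and 7.49, 7.87 and 7.74 at 2 hr, Egr1 9.88 and 10.73 at 1 hr and 10.70, 10.54 and 11.39 at 2 hr and Arc 8.67 and 9.26 at 1 hr and 8.997, 9.09 and 8.22 at 2 hr, each with overlap. Klf10 read 6.81 and 6.69 at 1 hr and 7.87, 7.13 and 7.26 at 2 hr and Ier5 6.92 and 6.65 at 1 hr and 5.48, 5.98 and 6.38 at 2 hr, without overlap in opposite directions. None of the 32 genes had an unadjusted p under 0.05 in limma, and 5 separated, 1 upward and 4 downward, which is 15.6% against 14.4% of all genes and so near the background. The dimmer sets of Klf10 (rc_AI071299_at) and Ier5 (rc_AA800604_at) overlapped, at 0.48 and -1.46.

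Of the stress lists, heat shock proteins and chaperones had 13 of 24 higher with a median of 0.05 (-0.01 under quantile normalization). Cct3, a subunit of the cytosolic chaperonin, read 7.52 and 7.71 at 1 hr and 7.002, 7.18 and 7.01 at 2 hr, and Hsp90b1, a chaperone of the endoplasmic reticulum, read 8.94 and 8.89 at 1 hr and 8.75, 8.02 and 8.33 at 2 hr, both lower without overlap. Hspa5, the central chaperone of the endoplasmic reticulum, read 7.95 and 8.49 at 1 hr and 8.96, 7.54 and 8.56 at 2 hr. These values differ by -0.55, -0.55 and 0.13. The dimmer sets S69316_s_at and AA685903_at of Hsp90b1 overlapped, at 0.05 and -0.24, and S63521_i_at of Hspa5 separated upward at 0.88. Endoplasmic reticulum stress genes had 8 higher and 8 lower with a median of -0.04, and Trib3, a pseudokinase of that response, read 4.82 and 4.83 at 1 hr and 6.06, 5.56 and 7.01 at 2 hr, without overlap.

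Hypoxia-responsive genes had 11 of 21 higher and a median of 0.09. Pfkfb2, which makes the glycolytic activator fructose-2,6-bisphosphate, read 3.73 and 3.23 at 1 hr and 4.24, 5.50 and 5.995 at 2 hr, a difference of 1.76 (SE 0.63), and Hmox1, heme oxygenase 1, read 6.44 and 6.66 at 1 hr and 6.25, 6.92 and 5.86 at 2 hr. That probe set of Pfkfb2 separated upward, but its other one, S67900_s_at, separated downward, at 4.61 and 3.93 at 1 hr and 3.31, 3.74 and 3.23 at 2 hr, and Hmox1 overlapped. Antioxidant genes had 8 of 23 higher and a median of -0.10, and next to Sod3 catalase (Cat) read 4.61 and 3.79 at 1 hr and 5.92, 5.58 and 4.63 at 2 hr. Apoptosis regulators had 10 of 17 higher and a median of 0.03, with Faslg at -0.48 and Hrk at 0.40, whose dimmer set rc_AA925846_s_at separated at 1.37. Xenobiotic metabolism genes had 17 of 32 higher and a median of 0.04, with Ephx1, the microsomal epoxide hydrolase, at 5.18 and 6.55 at 1 hr and 6.95, 7.25 and 6.73 at 2 hr and Cyp2a1 at -0.67. Circadian clock genes had 6 of 12 higher and a median of 0.06 (-0.09 under quantile normalization), with Per2 at 1.34 and Dbp at 0.55, both overlapping, while J03179_at of Dbp separated upward at 0.37.

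Among inflammatory and acute response genes 32.1% separated, against 14.4% of all genes, 2 of 28 upward and 7 downward. Ccl4, a chemokine, read 5.31 and 4.20 at 1 hr and 3.23, 3.61 and 3.23 at 2 hr, a difference of -1.40 (SE 0.47). Il1r1, the receptor of interleukin-1, read 4.51 and 4.18 at 1 hr and the floor on all 3 arrays of 2 hr, at least 2.16-fold lower, while M95578_at of Il1r1 overlapped at 0.07. Those genes are dim, and 13 of 28 read higher and 15 lower, with a median of -0.16, and -0.05 without 2 hr replicate 3. Without 1 hr replicate 1, the array on which dim genes read higher, 17 were higher and 11 lower, with a median of 0.20.

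For energy metabolism, glycolysis and glucose transport genes had 13 of 24 higher with a median of 0.06, and oxidative phosphorylation genes had 10 of 28 higher with a median of -0.06. Cox4i2, a cytochrome oxidase subunit, read 7.66 and 7.65 at 1 hr and 8.01, 8.02 and 8.07 at 2 hr, even in both groups and separated, at a difference of 0.37 (SE 0.26). Cox6c read 0.56 with overlap. Cholesterol synthesis genes had 13 of 16 higher and 3 lower with a median of 0.18; 3 separated upward and 0 downward, which is 18.8% against 14.4% of all genes (6.57% upward), and 0 had an unadjusted p under 0.05 in limma. Dhcr7, which catalyses the last step to cholesterol, read 7.44 and 7.88 at 1 hr and 8.499, 8.10 and 8.27 at 2 hr, a difference of 0.63 (SE 0.28). Fdft1, squalene synthase, read 8.03 and 8.07 at 1 hr and 8.23, 8.44 and 8.09 at 2 hr, and Lss, lanosterol synthase, read 6.51 and 6.53 at 1 hr and 6.66, 6.84 and 6.97 at 2 hr. In Fdft1 the lowest 2 hr array was barely above the 1 hr arrays. The dimmer probe sets were mixed: AB016800_at of Dhcr7 overlapped at 0.06, 1 of 3 of Fdft1 separated, rc_H33426_at at 0.39, and both of Lss overlapped, at 0.64 and -0.18. Acat2 overlapped at 0.45 on its brighter set and separated upward on rc_AA859980_at, at 0.92 (SE 0.33). Over the alternatives the median of the cholesterol list ran from 0.11, without 2 hr replicate 2, to 0.24.

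Ribosomal protein genes had 9 of 37 higher and 28 lower, with a median of -0.20, and the sign turned on single arrays. Their mean level was 11.16 and 10.45 on the 1 hr arrays and 10.18, 10.21 and 11.44 on the 2 hr arrays, highest on the 2 arrays of highest top intensity. Between those 2 arrays the median was 0.37, and among the other 3 it was -0.32. Without 2 hr replicate 1 the median was 0.05 with 23 of 37 higher, without 2 hr replicate 3 it was -0.61 with 0 higher, without 2 hr replicate 2 it was 0.04, and without 1 hr replicates 1 and 2 in turn 0.05 and -0.56. Rpl23 and Rpl30 read -0.94 and -0.85 with overlap. The part of the array property in these values was not tested.

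**Figure D4:**
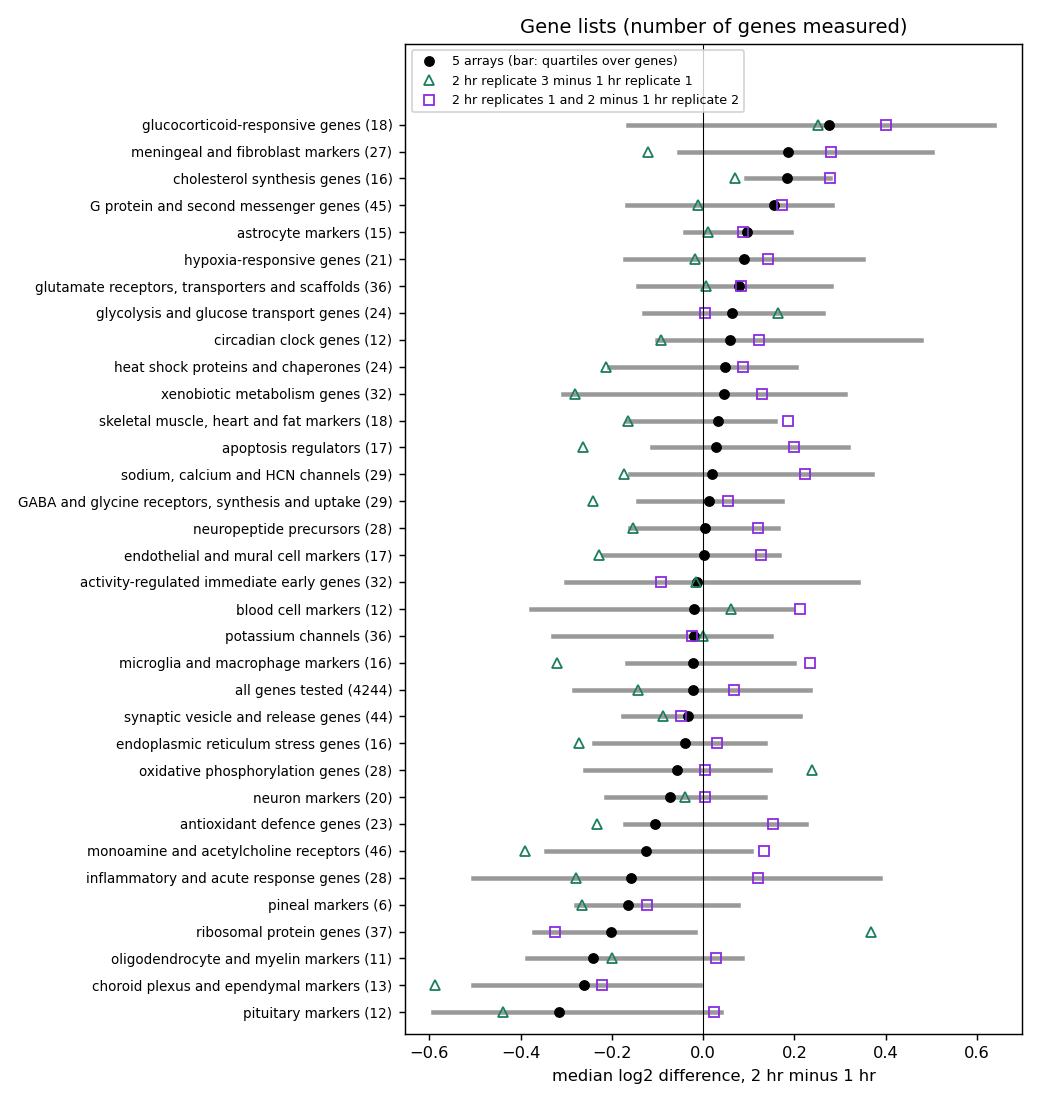
Median log2 difference, 2 hr minus 1 hr, of each gene list over the 5 arrays (black points, with bars for the quartiles over genes), for 2 hr replicate 3 minus 1 hr replicate 1 (green triangles) and for the other 3 arrays (purple squares). The glucocorticoid list has the highest black point, at 0.28, and the ribosomal list the widest gap between triangle and square, from 0.37 to -0.32.

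Markers of cell types and neighbouring tissues often stood high or low on single arrays. In whole brain RNA, fewer cells of a type and less RNA per cell cannot be told apart. Choroid plexus and ependymal markers had 3 of 13 higher and 10 lower, with a median of -0.26. Sostdc1, a secreted antagonist of bone morphogenetic proteins, read 6.54 and 6.27 at 1 hr and 4.25, 4.99 and 5.36 at 2 hr, a difference of -1.54 (SE 0.54), and Enpp2, autotaxin, read 8.34 and 8.25 at 1 hr and 8.08, 6.90 and 7.75 at 2 hr, a difference of -0.72 (SE 0.36), both without overlap, while D28560_g_at of Enpp2 overlapped at -0.35. Ttr, transthyretin, the most typical choroid plexus transcript, was high on 1 array only, at 7.65 and 11.74 at 1 hr and 8.29, 8.32 and 6.96 at 2 hr. The mean level of the list was 5.97 and 6.39 at 1 hr and 5.82, 6.15 and 5.60 at 2 hr, and its median was 0.02 without 2 hr replicate 3, -0.08 without 2 hr replicate 1 and -0.01 without 1 hr replicate 2.

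Pituitary markers had 4 of 12 higher and 8 lower, with a median of -0.32, and 0.01 without 2 hr replicate 3. Prl is given above, and Fshb, the beta subunit of follicle-stimulating hormone, read 4.26 and 4.41 at 1 hr and 3.23, 3.99 and 3.23 at 2 hr, without overlap, while M27048_at of Fshb overlapped at 0.00. Gh1, growth hormone, read 4.63 and 7.29 at 1 hr and 5.07, 4.50 and 4.65 at 2 hr, and Pomc, the precursor of corticotropin and endorphin, read 4.07 and 6.68 at 1 hr and 3.67, 7.10 and 3.94 at 2 hr. Each hormone was high on different arrays: Gh1 on 1 hr replicate 2, Pomc on 1 hr replicate 2 and 2 hr replicate 2, and Cga, the common alpha subunit, on 2 hr replicate 2, at 6.81 and 7.04 at 1 hr and 6.86, 9.21 and 6.88 at 2 hr. Pmch, a hypothalamic peptide precursor, read 9.58 and 3.23 at 1 hr and 3.92, 3.96 and 3.23 at 2 hr, far above the floor on 1 hr replicate 1 alone, and galanin (Gal) only on 2 hr replicate 2, at 5.998 against at most 3.34 elsewhere. How much hypothalamus, pituitary and choroid plexus each sample held was not tested.

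Meningeal and fibroblast markers had 19 of 27 higher and 8 lower, with a median of 0.18, and 0.05 without 2 hr replicate 2 and 0.07 without 1 hr replicate 2. Col1a1, a chain of type I collagen, read 8.04 and 8.18 at 1 hr and 8.83, 8.99 and 8.57 at 2 hr, a difference of 0.69 (SE 0.27), and Lox, the collagen cross-linking enzyme, read 5.51 and 5.38 at 1 hr and 4.35, 4.59 and 4.03 at 2 hr, lower without overlap. The 3 dimmer probe sets of Col1a1 overlapped, at 0.14, -0.09 and 0.04, and the other collagens Col1a2 and Col3a1 read 0.06 and 0.09. Of the 3 dimmer sets of Lox, S66184_s_at separated downward at -1.27, rc_AA875582_at, at the floor on both 1 hr arrays, separated upward at 1.16, and S77494_s_at overlapped at -0.27. On the brightest probe set of each gene, Col1a1 was the single member of 27 with an unadjusted p under 0.05 in limma. Of all genes 115 of 4244 (2.71%) had such a p.

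Markers of neurons, astrocytes and oligodendrocytes had medians between -0.24 and 0.10. Neuron markers had 8 of 20 higher and a median of -0.07, with parvalbumin (Pvalb) at 8.77 and 9.29 at 1 hr and 8.59, 8.08 and 8.73 at 2 hr, lower without overlap, and Calb2 at -0.60. Astrocyte markers had 11 of 15 higher and a median of 0.10. Gja1, connexin 43, was at the floor on 2 hr replicate 1 alone, at 6.75 and 6.97 at 1 hr and 3.23, 6.70 and 6.60 at 2 hr, and Aqp4 read 0.54. Oligodendrocyte and myelin markers had 3 of 11 higher and a median of -0.24, with Mbp, myelin basic protein, at 12.23 and 11.31 at 1 hr and 12.49, 10.19 and 12.54 at 2 hr, Pllp at -0.42 and the precursor marker Pdgfra at 6.80 and 7.17 at 1 hr and 8.14, 7.23 and 7.34 at 2 hr. That probe set of Pdgfra separated upward, but Z14118cds_at, near the floor, separated downward at -1.15 and Z14118cds_g_at overlapped at -0.12. Mbp varied widely within both groups.

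Microglia and macrophage markers had 7 of 16 higher and a median of -0.02 (0.07 under quantile normalization), with Cd74 at 0.74 and Cx3cr1 at -0.67. On the brightest probe sets 0 of 16 separated, against 14.4% of all genes. A dimmer set of Cd74, X14254cds_g_at, separated upward at 2.08, and X14254cds_at overlapped at -0.22. Endothelial and mural cell markers had 9 of 17 higher and a median of 0.00, with the growth factor receptor Flt1 at a difference of -0.69 (SE 0.38), lower without overlap. Blood cell markers had 5 of 12 higher and a median of -0.02 (0.11 under quantile normalization), with Cd8b at 0.62 and S100a8 at 0.44. Pineal markers had 2 of 6 higher and a median of -0.16, with Pax4 at 0.90 and Gch1 at -0.29.

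Whether a probe set read higher or lower after 2 hr went with its brightness. Above the median intensity, 43 probe sets were higher and 16 lower at an unadjusted p under 0.05 in limma, and below it 47 were higher and 103 lower. Groups that did not overlap showed the same split, 251 higher and 204 lower among the brighter probe sets against 209 and 400 among the dimmer. On 1 hr replicate 1 the 5 dimmer bins of 10 read a median of 0.17 to 0.31 above the 5-array mean. Without 1 hr replicate 1, 86 were higher and 59 lower at an unadjusted p under 0.05. Of the named genes, Mapk8, Abcb11, Vps26a and Prl lie in the dimmer part. That both of their 1 hr arrays lay above every 2 hr array follows from the rule that named them.

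**Figure D5:**
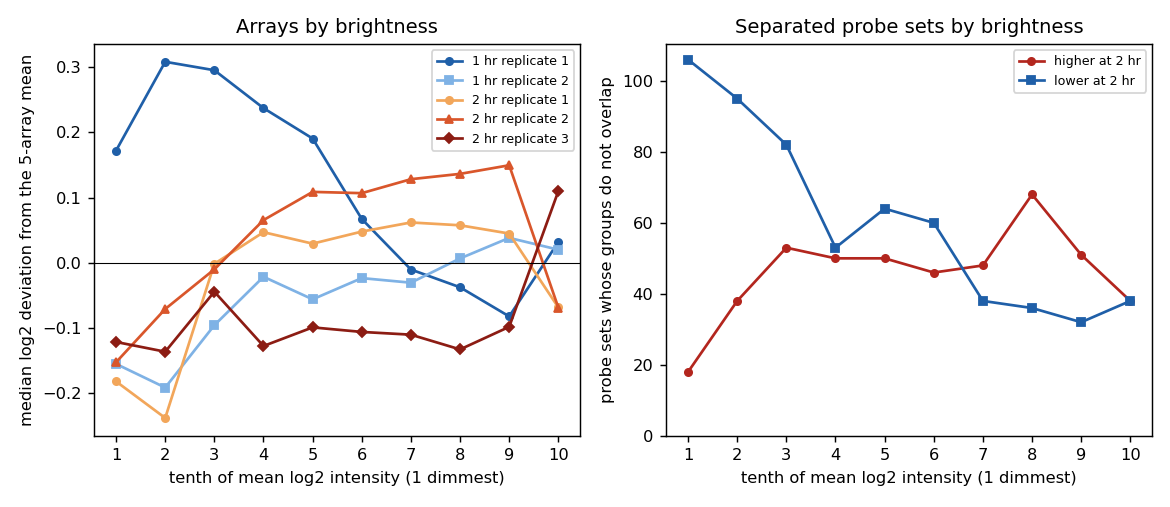
Left, the median deviation of each array from the 5-array mean in 10 bins of mean log2 intensity, from dimmest to brightest, on the log2 scale. Right, the number of probe sets in each bin whose groups do not overlap, from 106 lower and 18 higher in the dimmest bin to 38 and 38 in the brightest.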

How the data were processed

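The authors deposited 1 linear intensity for each of 8799 probe sets on each array. The sources used here give no software, scaling or detection calls. The 5 arrays had 2% trimmed means between 150.17 and 150.32, so the columns were used as deposited. The 59 control probe sets were left out. Values of the 5 exposed arrays were floored at their 20th percentile, an intensity of 9.4 (log2 3.23), and log2 was taken. Probe sets above the floor on at least 2 of 5 arrays were tested, 7485 of 8740. The floor understates differences of dim genes, and a group wholly at the floor gives a lower bound on the fold, from the group means.

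Of the 8740, 7006 had 1 gene symbol in the platform's annotation, 308 several and 1426 none, and 6985 were updated through RefSeq's table of GRCr8, which gave names and promoter sequences only. The brightest probe set stood for a gene in the lists.

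Limma 3.58.1 in R 4.3.3 (eBayes with an intensity trend, after lmFit and contrasts.fit; two-sided, Benjamini-Hochberg over all probe sets, threshold 0.05) compared the group means, and the steps were checked on simulated data. Lists were described without a test. The number of arrays limits the precision. By rule, the text names per direction the first 8 brighter and 4 dimmer genes by p among those without overlap, the 2 members of each list with the smallest p, and a preset group of reference genes. Outside the rule, the glucocorticoid list is given in full. Gabra3, Fdft1, Lss, Gh1, Cga, Col1a2, Col3a1 and the genes marked as such were chosen after their values were seen. The comparison, the lists and the rule were chosen with earlier results of these data known. As alternatives the arrays were quantile normalized or centred on their medians, and other settings were a floor at the 5th or 40th percentile or from all 8 arrays, log2 of the value plus 16, no filter, a filter on all 5 arrays, all 8 arrays in the fit, no intensity trend, the replicate number or the highest intensity as a block, and leaving out each array. For the lists, the mean over all probe sets of a gene was a further alternative.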

Additional observations from a re-analysis of the deposited data

How the results depend on the processing

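Of 132 results recomputed under up to 18 alternatives, 2151 of 2234 values counted as unchanged. For a gene that meant the same sign and side of the threshold, and for a count a similar size. For a list median it meant a shift smaller than the spread of arrays within a group, so its sign could turn. Only 5 of 33 list medians kept their sign throughout. Of 93 genes, 81 never took the opposite sign, among them genes named for groups without overlap, which leaving out an array cannot turn. In limma 0 probe sets passed under every alternative other than the replicate block. There 17 passed, 6 higher and 11 lower after 2 hr, among them Alox15, Cyb5a, Rps15 and Ttr, and 12 of the 17 had groups that overlapped. That fit keeps 1 residual degree of freedom and took the spread of every probe set from the intensity trend. Number 3 occurs only at 2 hr, so 2 hr replicate 3 does not enter the differences of that fit. They equal those found when 2 hr replicate 3 is left out, so these alternatives are not separate for a difference. The labels share the numbers 1 and 2 between the groups, but do not say that a number marks a pair, so the numbers were not taken as pairs. Same-numbered samples deviated together with correlations of -0.07 and 0.15, and 1 hr replicate 1 with 2 hr replicate 3 at 0.22. With 2 arrays at 1 hr the deviations of that group mirror each other, so these values cannot decide whether the numbers mark pairs. At an unadjusted p under 0.05 the count of 209 became 111 with the floor at the 40th percentile and 120 with the strict filter, which test fewer dim probe sets, and 374 with the replicate block. Leaving out 1 array at a time gave 142 to 627, the highest without 1 hr replicate 2. The log2 difference of Mbp turned to 0.0079 after median centring and 0.15 with the highest intensity as a block, and that of S100a8 to -0.078 with the floor at the 5th percentile. With the replicate block Arc turned to 0.080, Hmox1 to 0.036 and Pomc to 0.010. When each array was left out in turn, the difference ran from -0.49 to 0.10 for Arc, -1.49 to 0.29 for Calb2, -0.12 to 1.60 for Cd74, -0.14 to 0.35 for Gad1, -0.40 to 0.086 for Grin1, -0.49 to 0.036 for Hmox1, -0.17 to 0.54 for Hspa5, -0.49 to 0.74 for Mbp, -5.88 to 0.47 for Pmch, -1.77 to 0.83 for Pomc and -3.88 to 0.21 for Ttr. The cause of these turns was not tested. With 2 arrays at 1 hr, a left-out array leaves a lone sample that is assumed to vary like the others, and genes near the floor have no order below it.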
